A study of Homo sapiens with 6 samples.

Results

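The genes of cholesterol and fatty acid synthesis were examined in CHL-1 cells, an established human melanoma line that carries the EWSR1::CREM fusion gene, after CREM knockdown. The set holds 46 genes, found by symbol among the 21625 genes of the deposited tables, and covers the enzymes of sterol synthesis, the SREBP and LXR proteins that control them, sterol transport, and the enzymes that make, desaturate, elongate and activate fatty acids. All 46 were found, and all 46 had a mean of at least 1 RPKM (reads scaled to library size and gene length) in both groups. The list was drawn up by function, with earlier results of these data known.

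CREM siRNA cells received 50 nM of an siRNA pool directed against the DNA-binding domain of CREM for 48 h, and control siRNA cells received a mix of non-targeting siRNAs for the same time. Both groups are the same fusion-bearing line, labelled CREM knockdown and WT, and each has 3 mRNA sequencing libraries. The study's methods describe culture in medium with fetal bovine serum, and the RPKM column names of both groups hold the word serum. The siRNA acts on the EWSR1::CREM fusion as well as on CREM itself, and a value per gene cannot part the transcripts of one from those of the other. Only this line and 1 siRNA pool were sequenced, so no value is checked in another line or with another pool.

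Libraries held 23793186 to 29793837 reads with CREM siRNA and 17221794 to 24341121 with control siRNA, and the fewest reads of any member in any library was 73. CREM was at 14.8, 16.9 and 15.5 CPM (reads scaled to library size, not corrected for gene length) in CREM siRNA cells, against 268, 286 and 287 CPM in control siRNA cells. EWSR1 averaged 131 ± 7.61 CPM with CREM siRNA and 145 ± 7.58 CPM with control siRNA (SD, n = 3 each). Of the melanocyte lineage markers, SOX10, S100B, DCT and MITF were present in every library, whereas MLANA, TYR and TYRP1 were at 1.32 CPM or less in all 6, and PMEL was at 1.05 to 23.5 CPM with CREM siRNA and 1.72 to 5.47 CPM with control siRNA. The 8 markers summed to 2994 to 3158 CPM with CREM siRNA and 1093 to 1163 CPM with control siRNA. Of 7 leukocyte markers 5 were in the tables, with sums of 1.27 to 2.13 CPM with CREM siRNA and 9.70 to 11.2 CPM with control siRNA, of which PTPRC averaged 0.847 CPM with CREM siRNA and 9.49 CPM with control siRNA, and CD3E was at 0 in all libraries. The 7 epithelial markers summed to 2.54 to 3.44 CPM with CREM siRNA and 4.37 to 5.26 CPM with control siRNA, and the 8 fibroblast and endothelial markers to 3.58 to 3.86 CPM with CREM siRNA and 4.16 to 5.60 CPM with control siRNA. The 4 proliferation markers MKI67, TOP2A, PCNA and CCNB1 summed to 87.6 to 92.6 CPM with CREM siRNA and to 979 to 997 CPM with control siRNA. These differences in markers, of cycling above all, run alongside every result that follows, and their part in it was not tested.

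As background, cells build cholesterol from acetyl-CoA through mevalonate, the isoprenoid diphosphates, squalene and lanosterol. SREBP2, the product of SREBF2, drives the genes of this route, and SREBP1, from SREBF1, drives mainly those of fatty acid synthesis. SCAP escorts both precursors from the endoplasmic reticulum to the Golgi for cleavage when sterols are low, and INSIG1 and INSIG2 hold them back when sterols are high. The LXR receptors answer to oxysterols and turn on genes of sterol removal. Dividing cells need both products for new membrane.

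Promoters, from 250 bases before to 50 bases after each gene's start, were read from RefSeq (GRCh38.p14) for 42 of the 46 genes, the other members being ACAT2, FDFT1, SQLE and FASN. For 5 genes the 250 bases before the start are shown, to give the letters that CREM and the sterol factors are known to bind, where they occur. The cAMP response element (CRE), the site of the CREM family, was searched as TGACGTCA and as its core TGACG, the sterol regulatory element (SRE) as TCACCCCAC and as its core CACCCCAC, the E-box as CACGTG and the CCAAT box, the site of NF-Y, as CCAAT, on both strands. Capitals mark each match, and a match on the other strand appears as its reverse complement, such as ATTGG for the CCAAT box. SREBF2 (chr22:41832855-41833104, plus strand) and INSIG1 (chr7:155297628-155297877, plus strand) are regulators of the pathway, FADS1 (chr11:61817004-61817253, minus strand) and ELOVL5 (chr6:53348951-53349200, minus strand) are the members with a full CRE, and MSMO1 (chr4:165327419-165327668, plus strand) holds 4 CCAAT boxes. The FADS1 stretch lies within the annotated span of FADS2, which runs the other way. MSMO1 is not the member with the most CCAAT boxes, since MVK and NSDHL hold more.
SREBF2: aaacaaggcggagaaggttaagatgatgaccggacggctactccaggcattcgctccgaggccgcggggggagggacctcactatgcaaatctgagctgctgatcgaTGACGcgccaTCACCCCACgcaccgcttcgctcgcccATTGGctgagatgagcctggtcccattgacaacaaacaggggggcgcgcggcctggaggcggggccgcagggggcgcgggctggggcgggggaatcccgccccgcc
INSIG1: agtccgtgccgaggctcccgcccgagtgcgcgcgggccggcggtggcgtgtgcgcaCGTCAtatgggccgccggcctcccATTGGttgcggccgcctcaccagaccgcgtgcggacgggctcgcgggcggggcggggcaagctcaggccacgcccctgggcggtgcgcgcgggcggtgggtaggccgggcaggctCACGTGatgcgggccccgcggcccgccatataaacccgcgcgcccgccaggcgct
FADS1: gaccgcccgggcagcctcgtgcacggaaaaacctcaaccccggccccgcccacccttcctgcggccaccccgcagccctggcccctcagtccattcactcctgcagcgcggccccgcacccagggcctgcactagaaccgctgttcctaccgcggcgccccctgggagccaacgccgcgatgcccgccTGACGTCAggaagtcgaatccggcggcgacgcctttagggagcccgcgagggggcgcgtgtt
ELOVL5: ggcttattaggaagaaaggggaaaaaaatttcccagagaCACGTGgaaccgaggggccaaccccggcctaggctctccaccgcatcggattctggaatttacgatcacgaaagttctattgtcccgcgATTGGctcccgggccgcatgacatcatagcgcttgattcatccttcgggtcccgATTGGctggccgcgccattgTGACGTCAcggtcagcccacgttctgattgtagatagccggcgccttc
MSMO1: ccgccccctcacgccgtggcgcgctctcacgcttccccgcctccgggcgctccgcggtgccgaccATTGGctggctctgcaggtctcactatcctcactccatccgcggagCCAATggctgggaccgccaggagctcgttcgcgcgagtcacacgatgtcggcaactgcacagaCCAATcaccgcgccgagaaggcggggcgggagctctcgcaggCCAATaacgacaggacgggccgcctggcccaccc

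The SRE match of SREBF2 lay 133 to 125 bases before the start, and the core of a CRE was just upstream of it, at bases -143 to -139. The full CRE was at bases -62 to -55 of FADS1 and -48 to -41 of ELOVL5, and the E-box of INSIG1 at bases -55 to -50. Of the 42 member promoters, 2 held the full CRE (4.76%), against 3.51% of the 9736 tested genes with a promoter and 1.98% of all 27305 promoters. The CRE core, which is also part of the full CRE, was in 19 (45.2%), against 35.5% of tested genes and 25% of all promoters. The SRE was in SREBF2 alone among the members (2.38%, against 0.349% of tested genes and 0.425% of all), and its core, which the SRE contains, was in 2.38% of members, 2.41% of tested genes and 2.72% of all promoters. The E-box was in 5 members (11.9%, against 10.4% and 7.43%) and the CCAAT box in 25 (59.5%, against 37.4% and 35.7%). CCAAT boxes were about as frequent in promoters of the members that fell (60% of 30) as in those of the members that rose (57.1% of 7). The CRE core was in 46.7% of the promoters of members that fell and in 28.6% of those that rose. For the full CRE these shares were 6.67% and 0%, for the SRE 3.33% and 0%, and for the E-box 16.7% and 0%. With only 7 promoters of members that rose, these differences were not tested. These are matches of letters, and no binding was measured.

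With CREM siRNA, 33 of the 46 genes fell, 8 rose and 5 did not pass the test (limma on log2(RPKM + 1), Benjamini-Hochberg adjusted p under 0.05 over 12407 genes). Across all tested genes 36.7% were lower and 36.6% higher, 73.4% in all, so a change in either direction was common, while the split of the members lay on the lower side. The median log2 fold change of the members was -0.45, and that of all tested genes was 0.00. Of the members, 15 had a log2 fold change of -1 or lower, which 8.85% of all tested genes had, and no member reached 1, which 5.76% of all tested genes did, though MYLIP, at 0.99, passed 1 when replicate 1 of either group was left out. The groups did not overlap in 41 members, against 76.2% of all tested genes, with 33 lying wholly below and 8 wholly above control siRNA. For any one of these genes the two-sided exact permutation test of 3 libraries against 3 gives p = 0.1, the smallest p it allows. Fold changes are on the log2(RPKM + 1) scale, which makes those of weakly expressed genes smaller.

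**Figure D1:**
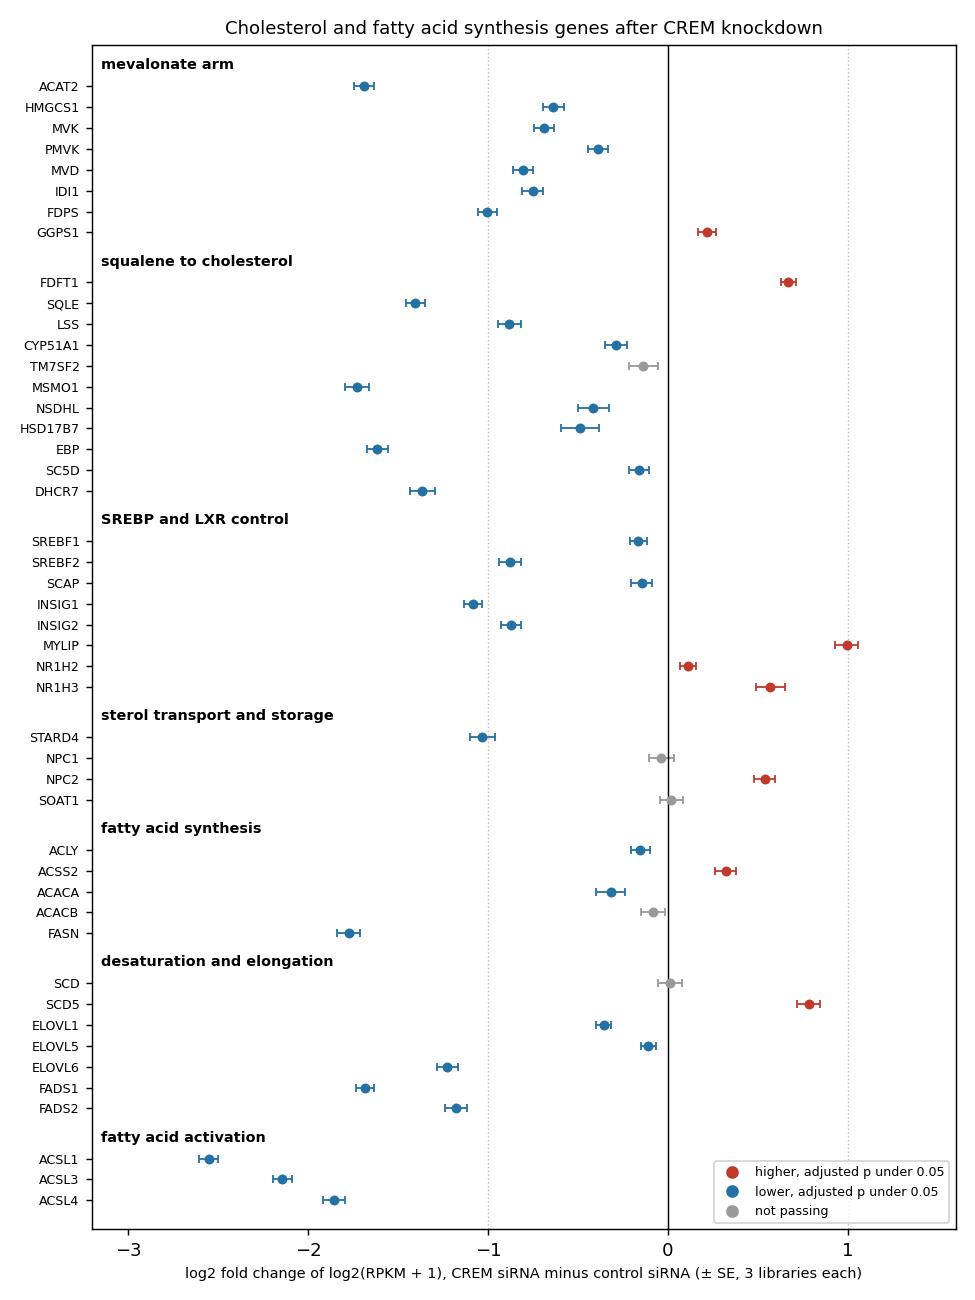
Log2 fold change of each of the 46 genes, CREM siRNA minus control siRNA, with its standard error from limma (3 libraries per group), grouped by role. Blue points are the 33 lower genes, red the 8 higher and grey the 5 that did not pass, and the lowest are ACSL1 at -2.55 and ACSL3 at -2.14.

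The scale of the libraries bears on the small changes. The summed RPKM of all 46 members was 1158 ± 27.3 with CREM siRNA and 1925 ± 35.1 with control siRNA (SD, n = 3 each). GAPDH itself was lower, at 1298, 1310 and 1501 CPM with CREM siRNA against 1517, 1591 and 1586 CPM with control siRNA. The 15 reference genes used for scaling were not constant either, and they differed in both directions. PGK1 averaged 314 CPM with CREM siRNA and 804 CPM with control siRNA, whereas B2M averaged 832 CPM with CREM siRNA and 474 CPM with control siRNA. Scaling by GAPDH moved the median log2 fold change of all genes up by 0.175, and scaling by the 15 reference genes moved it up by 0.157. Genes called higher then made up 66.0% and 64.3% of the calls, against 49.9% without it, and the members split into 9 higher and 24 lower with GAPDH, and 10 higher and 26 lower with the reference genes. The members at -1 or lower numbered 11 and 12 under these scalings, against 15 without them. Of all 12407 tested genes, 882 and 908 were called at -1 or lower under the same scalings, against 1098 without them. Of the members, 15 overlap another protein-coding gene, 12 of them one on the opposite strand, and 5 have named pseudogenes, so reads of these may have been shared out differently by the counting.

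In the mevalonate arm, 7 of 8 genes fell and GGPS1 rose, against 36.7% lower and 36.6% higher among all tested genes. ACAT2, the thiolase that joins acetyl-CoA units at the first step, fell most. ACAT2 was at 8.04, 8.10 and 8.04 CPM in CREM siRNA cells, against 29.8, 29.2 and 31.9 CPM in control siRNA cells. Its level was thus 26.6% of the control mean, far outside the spread of either group, with a log2 fold change of -1.69 (SE 0.0550, adjusted p = 4.68e-10, limma). ACAT2 overlaps TCP1 and SOD2 on the opposite strand, and no source used here says whether strand was used in counting. FDPS, the farnesyl diphosphate synthase that makes the last precursor shared by sterols and isoprenoids, had 66.3, 66.7 and 64.9 CPM with CREM siRNA against 127, 131 and 144 CPM with control siRNA, a log2 fold change of -1.003 (SE 0.0541, adjusted p = 2.71e-08, limma). FDPS has 8 named pseudogenes, to which reads can be lost or from which they can be gained.

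The 5 other enzymes of the arm that fell lie in a row between them. HMGCS1, which makes HMG-CoA, had a log2 fold change of -0.64. The mevalonate kinase MVK and the phosphomevalonate kinase PMVK were at -0.69 and -0.39, the decarboxylase MVD at -0.81 and the isomerase IDI1 at -0.75. In each of these genes all 3 CREM siRNA libraries lay below all 3 control siRNA libraries, the closest being PMVK at 24.8 to 25.2 CPM with CREM siRNA against 30.9 to 35.3 CPM with control siRNA, whose call was lost with GAPDH scaling (log2 fold change -0.20, adjusted p = 0.0545, limma). GGPS1, which overlaps TBCE on its own strand, adds a further isoprene unit to farnesyl diphosphate and so leads away from sterols to protein prenylation. It was at 52.5 to 55.7 CPM with CREM siRNA and 45.7 to 48.1 CPM with control siRNA, a log2 fold change of 0.22 (SE 0.0497, adjusted p = 0.00232, limma). Per length, GGPS1 stood at 0.459 ± 0.00889 of FDPS within CREM siRNA libraries and 0.193 ± 0.00769 of FDPS within control siRNA libraries (SD, n = 3 each).

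From squalene to cholesterol, 9 of 11 genes fell, against 36.7% of all tested genes. FDFT1 rose and TM7SF2 did not pass. The one that rose stands at the entry. FDFT1, the squalene synthase that commits farnesyl diphosphate to sterols, was at 363, 361 and 351 CPM in CREM siRNA cells, against 223, 220.1 and 227 CPM in control siRNA cells. All 3 CREM siRNA libraries were above all 3 control siRNA libraries, and the log2 fold change was 0.67 (SE 0.0430, adjusted p = 1.13e-07, limma). SQLE, the squalene epoxidase of the next step and a known control point of the pathway, moved the other way, with 25.2, 24.1 and 22.9 CPM with CREM siRNA against 69.5, 67.9 and 69.0 CPM with control siRNA and a log2 fold change of -1.40 (SE 0.0516, adjusted p = 1.19e-09, limma). The ratio of FDFT1 to SQLE, both in RPKM, was 10.6 ± 0.319 in CREM siRNA libraries and 2.31 ± 0.0310 in control siRNA libraries (SD, n = 3 each). Against FDPS, the enzyme before it, the ratio of FDFT1 was 2.04 ± 0.0135 with CREM siRNA and 0.628 ± 0.0350 with control siRNA. In RPKM, FDFT1 was the highest of the 19 sterol synthesis enzymes with CREM siRNA (81.6), whereas FDPS was the highest with control siRNA (81.3).

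**Figure D2:**
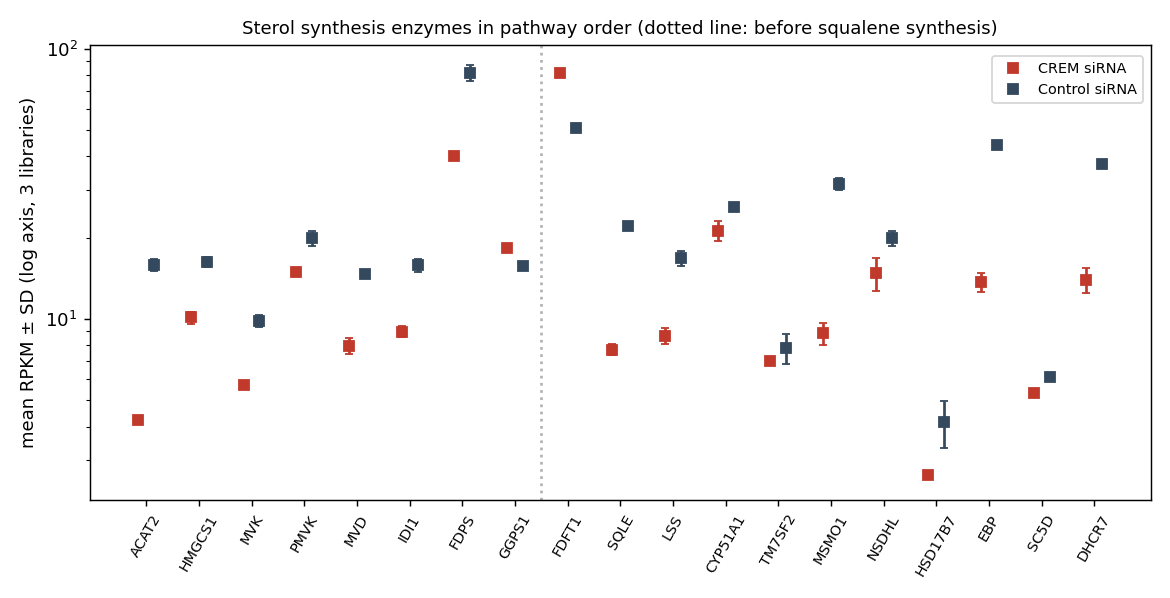
Mean RPKM (log axis) ± SD of the 19 sterol synthesis enzymes in pathway order, CREM siRNA in red and control siRNA in dark blue, 3 libraries each. The dotted line parts the mevalonate arm from the route that begins with squalene synthesis by FDFT1. FDFT1 and GGPS1 are the enzymes whose CREM siRNA level is the higher one.

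Beyond lanosterol the size of the drop differed from step to step. MSMO1 is an oxidase that takes part in removing methyl groups from the sterol ring. It had 23.7, 20.1 and 20.4 CPM with CREM siRNA against 75.7, 72.7 and 80.2 CPM with control siRNA. Its log2 fold change was -1.73 (SE 0.0666, adjusted p = 1.75e-09, limma). EBP, the sterol isomerase, had 14.4, 16.6 and 16.6 CPM with CREM siRNA against 51.2, 50.4 and 51.3 CPM with control siRNA, a log2 fold change of -1.62 (SE 0.0582, adjusted p = 1.03e-09, limma). DHCR7, the reductase of the final step to cholesterol in one branch, had 38.8, 35.2 and 43.6 CPM with CREM siRNA against 105, 105 and 104 CPM with control siRNA, a log2 fold change of -1.36 (SE 0.0675, adjusted p = 1.31e-08, limma). MSMO1 was at 28.0%, EBP at 31.2% and DHCR7 at 37.4% of its control mean. LSS, which closes squalene epoxide to lanosterol, was lower by a smaller amount (log2 fold change -0.88).

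The other enzymes of this stretch had smaller log2 fold changes. NSDHL and HSD17B7, which act with MSMO1 in the same demethylation, had log2 fold changes of -0.41 and -0.49, and in HSD17B7 the control siRNA libraries were spread between 5.72 and 8.54 CPM, above 4.46 to 4.75 CPM with CREM siRNA. The demethylase CYP51A1 was at -0.29, a call that was lost with GAPDH scaling (log2 fold change -0.10, adjusted p = 0.341, limma) and with reference gene scaling (log2 fold change -0.12, adjusted p = 0.0940, limma). The desaturase SC5D was at -0.16 (adjusted p = 0.0204, limma), but it turned to 0.0048 with GAPDH scaling and to -0.01 with reference genes, and did not pass without CREM siRNA replicate 2 (adjusted p = 0.0644, limma) or without control siRNA replicate 1 (adjusted p = 0.0568, limma). TM7SF2, a reductase of the step after CYP51A1, was at 11.1 to 11.3 CPM with CREM siRNA and 10.8 to 13.9 CPM with control siRNA (log2 fold change -0.14, adjusted p = 0.143, limma). Without control siRNA replicate 2 it passed (log2 fold change -0.23, adjusted p = 0.0125, limma).

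Among the genes that control the pathways, SREBF2 and both INSIG genes were lower, and SREBF1 and SCAP were lower by small amounts. MYLIP and the LXR gene NR1H3 were higher. NR1H2, the other LXR gene, was higher by a small amount, and its call depended on the setting. SREBF2 had 169, 150.4 and 155 CPM in CREM siRNA cells, against 315, 291 and 281 CPM in control siRNA cells. The groups were far apart, with a log2 fold change of -0.88 (SE 0.0593, adjusted p = 1.74e-07, limma). SREBF1 had 207, 195 and 209 CPM with CREM siRNA against 230.1, 229 and 227 CPM with control siRNA, a log2 fold change of -0.16 (SE 0.0462, adjusted p = 0.00825, limma). SREBF1 turned to 0.03 with GAPDH scaling and 0.0076 with reference gene scaling, so its direction depends on the scale. Per length, SREBF1 was 1.57 ± 0.0747 times the level of SREBF2 within CREM siRNA libraries, and 0.941 ± 0.0481 times within control siRNA libraries (SD, n = 3 each).

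INSIG1, itself a well known SREBP target, had 68.3, 65.8 and 62.4 CPM with CREM siRNA against 140, 141 and 145 CPM with control siRNA, and its log2 fold change was -1.08 (SE 0.0488, adjusted p = 5.90e-09, limma). INSIG2 had 15.1, 16.0 and 15.1 CPM with CREM siRNA against 31.1, 31.0 and 28.9 CPM with control siRNA, a log2 fold change of -0.87 (SE 0.0557, adjusted p = 1.11e-07, limma). INSIG1 was thus at 46.1% and INSIG2 at 50.8% of the control mean, and the ratio of INSIG1 to INSIG2 in RPKM, 3.76, 3.43 and 3.43 with CREM siRNA against 3.75, 3.79 and 4.19 with control siRNA, overlapped between the groups. SCAP had 109, 96.2 and 104 CPM with CREM siRNA against 119.6, 113 and 111 CPM with control siRNA, a log2 fold change of -0.15 (SE 0.0570, adjusted p = 0.0394, limma). SCAP turned to 0.04 and 0.02 under GAPDH and reference gene scaling, and it did not pass without CREM siRNA replicate 2 or 3 or control siRNA replicate 1 or 2 (adjusted p between 0.0669 and 0.159, limma).

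MYLIP, also called IDOL, is a ubiquitin ligase that sends lipoprotein receptors to degradation. It was the member with the greatest rise, at 20.9, 21.3 and 21.1 CPM in CREM siRNA cells against 9.81, 8.83 and 8.54 CPM in control siRNA cells. Its log2 fold change was 0.99 (SE 0.0621, adjusted p = 8.99e-08, limma), or 233% of the control mean in CPM. NR1H3, which encodes LXR alpha, averaged 7.39 ± 0.838 CPM with CREM siRNA and 4.12 ± 0.425 CPM with control siRNA (SD, n = 3 each), a log2 fold change of 0.57 (SE 0.0825, adjusted p = 8.69e-05, limma), and lies over ACP2 on the opposite strand. NR1H2, which encodes the more widely expressed LXR beta, was at 0.11 (adjusted p = 0.0437, limma) and lost its call without any one of 5 of the 6 libraries, control siRNA replicate 3 being the exception (adjusted p between 0.0655 and 0.141, limma), in the CPM table (adjusted p = 0.0596, limma), and in the edgeR (adjusted p = 0.0662) and DESeq2 (adjusted p = 0.189) tests on whole reads.

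Of the 4 genes of sterol transport and storage, STARD4 fell, NPC2 rose, and NPC1 and SOAT1 did not pass. STARD4, a carrier of cholesterol between membranes and a known SREBP target, had 11.4, 13.8 and 13.1 CPM with CREM siRNA against 30.2, 32.7 and 31.8 CPM with control siRNA, and its log2 fold change was -1.03 (SE 0.0687, adjusted p = 1.54e-07, limma). NPC2 binds cholesterol inside the lysosome and hands it to NPC1, the membrane protein that exports it. NPC2 was at 109 to 115 CPM with CREM siRNA and 71.5 to 82.3 CPM with control siRNA (log2 fold change 0.54, adjusted p = 8.06e-06, limma), and NPC1 was at 138 to 162 CPM with CREM siRNA and 141 to 158 CPM with control siRNA (log2 fold change -0.04, SE 0.0687). SOAT1, which esterifies cholesterol for storage, had a log2 fold change of 0.02 (SE 0.0632) that passed only with reference gene scaling (log2 fold change 0.17, adjusted p = 0.0315, limma).

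In fatty acid synthesis, FASN fell far more than the enzymes that supply it. FASN, the synthase that builds palmitate, was at 317, 269 and 297 CPM in CREM siRNA cells, against 1095, 1001 and 986 CPM in control siRNA cells. The CREM siRNA level was 28.7% of control, with a log2 fold change of -1.77 (SE 0.0654, adjusted p = 1.23e-09, limma). ACLY, which cleaves citrate to cytosolic acetyl-CoA, had 339, 304 and 342 CPM with CREM siRNA against 373, 359 and 361 CPM with control siRNA (log2 fold change -0.15, adjusted p = 0.0254, limma). That small difference turned to 0.04 and 0.02 with GAPDH and reference gene scaling and was lost without CREM siRNA replicate 2 or control siRNA replicate 1 or 2 (adjusted p between 0.0533 and 0.102, limma). ACACA, the acetyl-CoA carboxylase of the committed step, was at 60.7 to 73.9 CPM with CREM siRNA against 81.5 to 96.7 CPM with control siRNA (log2 fold change -0.32, adjusted p = 0.00432, limma), a call lost with GAPDH scaling (log2 fold change -0.15, adjusted p = 0.190) and reference gene scaling (log2 fold change -0.17, adjusted p = 0.0859). ACACB, the mitochondrial isoform known to govern fatty acid oxidation, did not pass (log2 fold change -0.08, SE 0.0673). ACSS2, which makes acetyl-CoA from acetate, rose, with 48.2, 48.2 and 54.4 CPM with CREM siRNA against 39.5, 39.4 and 39.6 CPM with control siRNA (log2 fold change 0.32, adjusted p = 0.000419, limma).

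SCD behaved differently from FASN, whereas ELOVL6, described below, fell. SCD, the desaturase that makes oleate, was at 944, 837 and 857 CPM with CREM siRNA and at 929.7, 884 and 803 CPM with control siRNA. These values overlapped, with a log2 fold change of 0.01 (SE 0.0658, adjusted p = 0.880, limma), although SCD passed as higher under GAPDH scaling (log2 fold change 0.21, adjusted p = 0.0243) and reference gene scaling (log2 fold change 0.19, adjusted p = 0.0248). In RPKM the ratio of SCD to FASN was 4.64, 4.85 and 4.49 within CREM siRNA libraries, against 1.32, 1.38 and 1.27 within control siRNA libraries. The ratio of ACLY to FASN was 1.99, 2.11 and 2.15 with CREM siRNA, against 0.637, 0.671 and 0.685 with control siRNA. Such ratios do not depend on the scale of a library. SCD was the member with the highest RPKM in CREM siRNA cells (161), whereas ACSL1 (235), ACSL3 (199.6) and then SCD (159.6) led in control siRNA cells.

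**Figure D3:**
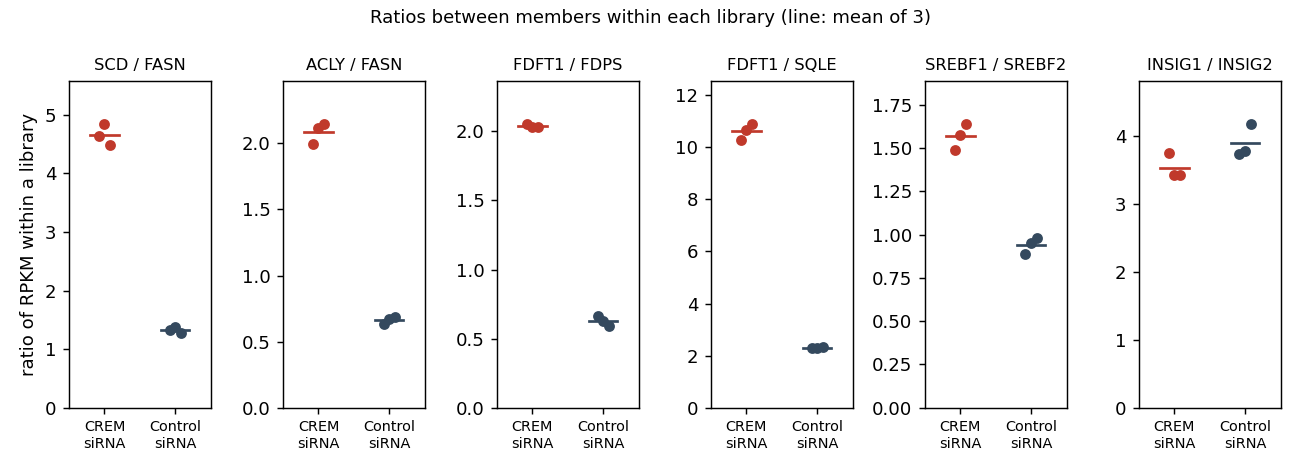
Ratio of the RPKM of one member to another within each library (points) and the mean of 3 libraries (lines), CREM siRNA on the left and control siRNA on the right, each panel on its own axis from 0. SCD to FASN averages 4.66 with CREM siRNA against 1.32 with control siRNA, and FDFT1 to SQLE 10.6 with CREM siRNA against 2.31 with control siRNA, while INSIG1 to INSIG2 overlaps between the groups.

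SCD5, the less abundant stearoyl-CoA desaturase, rose, with 35.4 to 39.1 CPM in CREM siRNA cells against 18.7 to 20.9 CPM in control siRNA cells and a log2 fold change of 0.78 (SE 0.0639, adjusted p = 8.13e-07, limma). In RPKM, SCD was 18.3 ± 0.980 times SCD5 in CREM siRNA libraries and 34.2 ± 3.58 times in control siRNA libraries (SD, n = 3 each). The other desaturases fell. FADS1, the last desaturase on the way to arachidonic acid, had 124, 117 and 115 CPM with CREM siRNA against 407, 383 and 384 CPM with control siRNA, a log2 fold change of -1.68 (SE 0.0491, adjusted p = 2.06e-10, limma). FADS2, which takes the first step of the same route, had 141, 123 and 135 CPM with CREM siRNA against 319, 305 and 291 CPM with control siRNA, a log2 fold change of -1.18 (SE 0.0597, adjusted p = 1.60e-08, limma). The ratio of FADS1 to FADS2 in RPKM was 0.759 ± 0.0442 with CREM siRNA and 1.09 ± 0.0267 with control siRNA (SD, n = 3 each). FADS1 and FADS2 overlap head to head on chromosome 11, FADS2 shares its strand with FEN1 at one end, and FEN1, a replication nuclease, was also lower (log2 fold change -1.91), so reads of these neighbours may not be fully parted.

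Of the elongases, ELOVL6, which takes palmitate to stearate, had 11.4, 10.4 and 10.7 CPM with CREM siRNA against 29.1, 31.3 and 30.2 CPM with control siRNA, a log2 fold change of -1.22 (SE 0.0599, adjusted p = 1.18e-08, limma). ELOVL1, which extends very long saturated chains, was at 99.1 to 103 CPM with CREM siRNA against 127 to 132 CPM with control siRNA (log2 fold change -0.36, adjusted p = 2.41e-05, limma), a call lost with GAPDH scaling (log2 fold change -0.16, adjusted p = 0.0862). ELOVL5, which extends polyunsaturated chains and has a full CRE in its promoter, was at 167 to 170.4 CPM with CREM siRNA against 180.4 to 186 CPM with control siRNA. Its log2 fold change of -0.11 (SE 0.0427, adjusted p = 0.0410, limma) turned to 0.08 and 0.06 under GAPDH and reference gene scaling, and it did not pass when any one of the 6 libraries was left out (adjusted p between 0.0603 and 0.149, limma). Of the members with a full CRE, FADS1 was thus among the 15 at -1 or lower and ELOVL5 among the small changes.

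All 3 acyl-CoA synthetases fell, as did 36.7% of all tested genes, and they were the members with the lowest log2 fold changes. These enzymes activate free fatty acids so that they can enter lipids or oxidation. ACSL1 had 209, 193 and 184 CPM in CREM siRNA cells, against 1199, 1154 and 1152 CPM in control siRNA cells. That was 16.7% of the control mean, a log2 fold change of -2.55 (SE 0.0535, adjusted p = 2.08e-11, limma). ACSL3, found on lipid droplets and the endoplasmic reticulum, had 195, 201 and 185 CPM with CREM siRNA against 910.4, 863 and 838 CPM with control siRNA, a log2 fold change of -2.14 (SE 0.0517, adjusted p = 4.86e-11, limma). ACSL4, which prefers arachidonic acid and is known for its part in ferroptosis, had 43.9, 46.4 and 40.7 CPM with CREM siRNA against 183, 169 and 164 CPM with control siRNA, a log2 fold change of -1.85 (SE 0.0617, adjusted p = 5.57e-10, limma). The summed RPKM of the 3 was 91.9 ± 4.25 with CREM siRNA and 467 ± 15.5 with control siRNA (SD, n = 3 each). ACSL1 (chr4:184755595-184826594), ACSL3 (chr2:222861036-222944639) and ACSL4 (chrX:109641335-109733257) lie on different chromosomes (GRCh38).

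**Figure D4:**
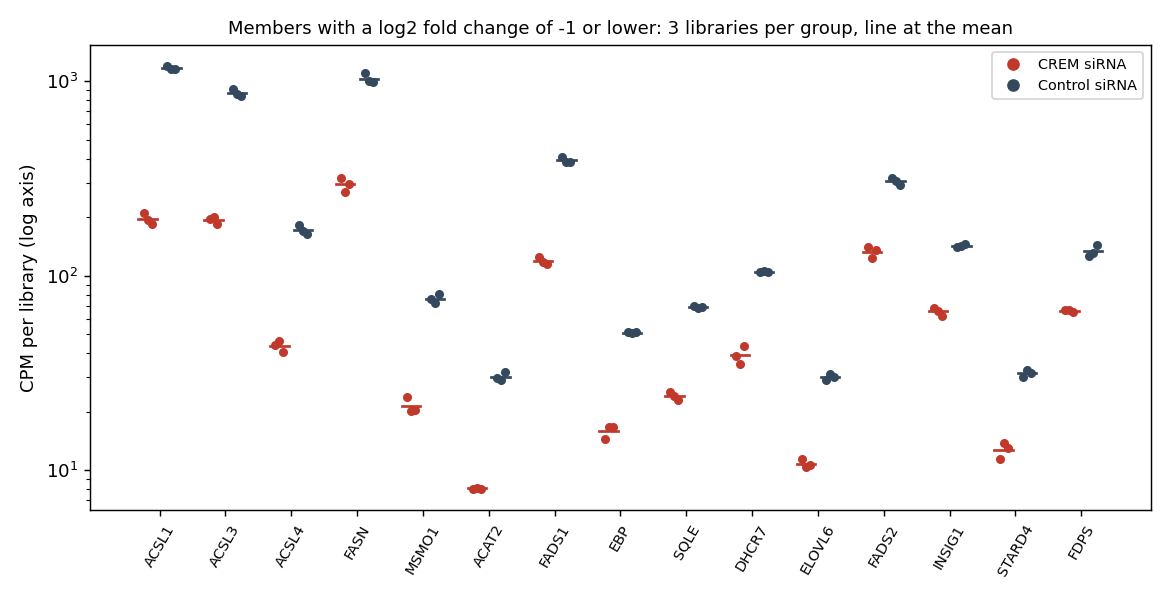
CPM per library (log axis) of the 15 members with a log2 fold change of -1 or lower, CREM siRNA in red and control siRNA in dark blue, with a line at the mean of 3 libraries. In each of the 15 the CREM siRNA libraries lie below the control siRNA libraries, and the gap is widest for ACSL1, at 184 to 209 CPM with CREM siRNA against 1152 to 1199 CPM with control siRNA.

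Summed by role, the RPKM of sterol transport and storage genes was the exception to the lower totals, at 155 ± 2.43 with CREM siRNA against 119 ± 5.12 with control siRNA (SD, n = 3 each), most of it NPC2. The mevalonate arm summed to 110.4 ± 1.61 with CREM siRNA and 189 ± 6.97 with control siRNA, and the route from squalene to cholesterol to 186 ± 2.69 with CREM siRNA and 267 ± 4.93 with control siRNA. The SREBP and LXR control genes summed to 153 ± 5.02 with CREM siRNA and 205 ± 3.40 with control siRNA. Fatty acid synthesis summed to 131 ± 8.46 with CREM siRNA and 224 ± 9.29 with control siRNA, and desaturation and elongation to 332 ± 13.7 with CREM siRNA and 455 ± 16.0 with control siRNA. In bulk libraries a lower level in every cell and fewer cells with the transcript cannot be told apart.

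Neighbouring pathways gave the setting. In 6 lists of 115 genes, drawn up by function, 98 were tested, of which 39 were higher, 28 lower and 31 not passing, with a median log2 fold change of 0.05. Over all tested genes 36.6% were higher and 36.7% lower. Of the called genes in these lists, DGAT2 and CYP7B1 passed the filter on low values only through the CREM siRNA libraries, and PRKAA2 and PDSS1 only through the control siRNA libraries, so these genes had to differ and their calls lend the counts no support. Of 12 genes that process SREBP or sense sterols, 7 passed as higher and 1 as lower, leaving 4 that missed the threshold, and the number higher was between 5 and 8 when 1 library was left out. SPRING1, listed in the tables as C12orf49 and needed for SREBP cleavage, was at 131 ± 11.4 CPM with CREM siRNA and 77.7 ± 5.86 CPM with control siRNA (log2 fold change 0.72). The gene called lower was PRKAA2, a catalytic subunit of AMPK, at 6.39 ± 0.765 CPM with CREM siRNA and 22.6 ± 0.878 CPM with control siRNA (log2 fold change -1.02). Of 12 tested genes of sterol export, transfer and oxidation, 7 were higher and 1 was lower. CYP27A1, of sterol oxidation, was at 68.1 ± 2.85 CPM with CREM siRNA and 20.7 ± 1.39 CPM with control siRNA (log2 fold change 1.62, adjusted p = 1.12e-09, limma). ABCA1, the cholesterol exporter, was at 49.9 ± 7.58 CPM with CREM siRNA and 16.9 ± 1.30 CPM with control siRNA (log2 fold change 1.12, adjusted p = 7.55e-07, limma). OSBPL2, an oxysterol-binding protein relative, was lower (log2 fold change -0.48). In the other 5 genes of that list there was no test, since 4 were under 1 RPKM and SOAT2 was not matched.

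In the isoprenoid branch 2 of 11 tested genes were higher (18.2%) and 5 lower (45.5%), against 36.6% and 36.7% of all tested genes. FNTA, a prenyltransferase subunit, had a log2 fold change of 0.78 and PDSS2, of ubiquinone synthesis, one of 0.27. ICMT, which methylates prenylated proteins, was at -0.57 and NUS1, of dolichol synthesis, at -0.37. In glycerolipid and phospholipid synthesis 8 of 22 tested genes were higher (36.4%) and 7 lower (31.8%), near the 36.6% and 36.7% of all tested genes. DGAT2, an enzyme of triglyceride synthesis, was at 7.74 ± 0.835 CPM with CREM siRNA and 0.495 ± 0.154 CPM with control siRNA (log2 fold change 1.76). DGAT2 passed the filter on low values only through the CREM siRNA libraries, so its call lends the count no support. The log2 fold change of LPIN2, a phosphatidate phosphatase, was 0.83, that of the acyltransferase AGPAT5 was -1.08 and that of the lipid droplet protein PLIN3 was -0.65. Among substrate supply, elongation partners and uptake, 4 of 17 tested genes were higher (23.5%) and 8 lower (47.1%). ME1, the malic enzyme that makes cytosolic NADPH, was at 164 ± 10.4 CPM with CREM siRNA and 59.2 ± 2.99 CPM with control siRNA (log2 fold change 1.41, adjusted p = 3.34e-09, limma), and the log2 fold change of the elongase ELOVL4 was 0.44. Those of the citrate carrier SLC25A1 and the dehydratase HACD3 were -0.51 and -0.50. Of 24 fatty acid oxidation genes tested, 11 were higher (45.8%) and 6 lower (25%), with 8 to 12 higher when 1 library was left out. ETFB, an electron carrier for the acyl-CoA dehydrogenases, was at 772 ± 37.1 CPM with CREM siRNA and 213 ± 8.46 CPM with control siRNA (log2 fold change 1.85, adjusted p = 2.12e-10, limma), and the log2 fold change of HADHB, of the trifunctional protein, was 0.86. CPT1A, the gate of fatty acid entry into mitochondria, had a log2 fold change of -0.67 and ECI2, an enoyl-CoA isomerase, one of -0.34.

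**Figure D5:**
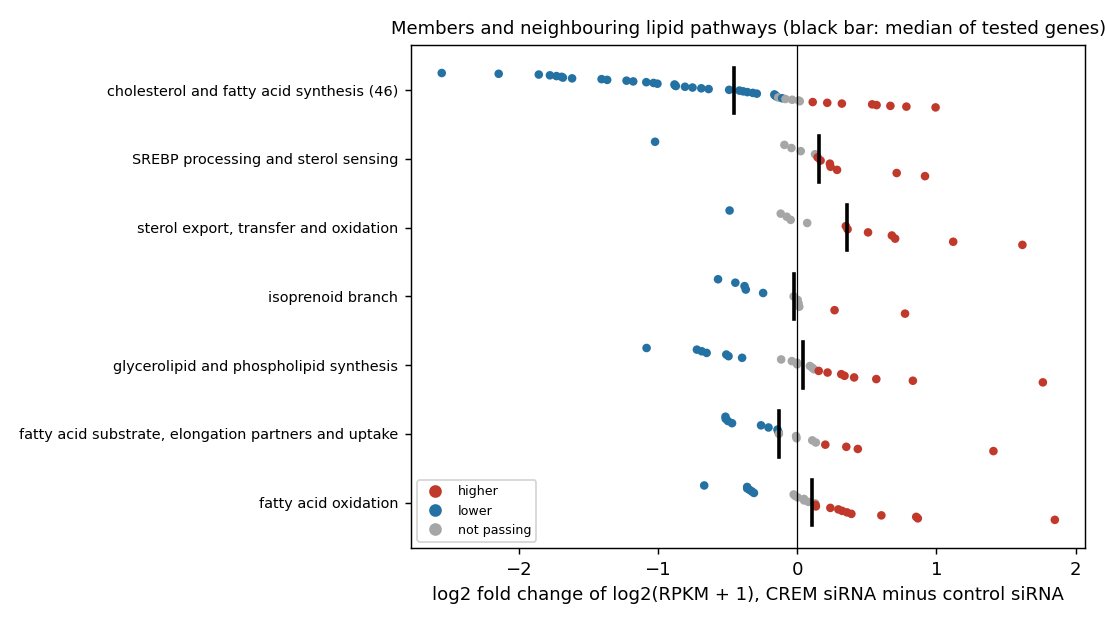
Log2 fold change (CREM siRNA minus control siRNA) of the tested genes of the 46-gene set and of 6 neighbouring lipid pathways, with a black bar at each median. The 46 genes have a median of -0.45, and the 6 lists have medians between -0.13 and 0.36.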

How the data were processed

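RNA of 3 CREM siRNA and 3 control siRNA samples of CHL-1 cells was made into libraries with a stranded mRNA kit. The study speaks of triplicate experiments, but the sources used here do not say that the libraries of a group came from separate cultures, so p-values measure only how these libraries vary, possibly for technical reasons. The authors deposited CPM per gene and library, and RPKM, the same values divided by gene length. R 3.6.1 and hg38 are named in the submitters' processing notes, whereas the aligner, counting program, annotation and strand setting were not given in the sources used here and could each move a value. The study's methods mention normalization to GAPDH, but GAPDH differs between the columns of both deposited tables. CPM columns sum to 973557 to 1007039, and 100% of their values are whole reads (tolerance 0.001) of 1 step per library.

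Genes averaging 1 RPKM or more (12407) were tested as log2(RPKM + 1) with limma 3.58.1 in R 4.3.3, using lmFit and then eBayes (trend, robust). P-values were adjusted over all of them (Benjamini-Hochberg) and called under 0.05. The test was checked on simulated data. Alternatives were pseudocounts of 0.1 and 0.5, no filter, a filter of 5 RPKM, scaling by GAPDH, the median ratio or 15 reference genes, CPM in place of RPKM, an unlogged equal-variance test, a replicate block, each library left out in turn, and edgeR 4.0.16 and DESeq2 1.42.0 on the recovered reads. Errors of means are SD.

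The members and all lists were chosen with earlier results of these data known. Values per library are given for members with a log2 fold change of 1 or more or of -1 or less and for SREBF1, SREBF2, SCAP, INSIG1 and INSIG2, and those of FDFT1, SCD, MYLIP, ACLY and ACSS2 were added after their values had been seen. The neighbouring lists name the genes with the lowest adjusted p, at most 2 per direction, except 1 gene that is not reported here. Gene positions and promoters are from RefSeq for GRCh38.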

Additional observations from a re-analysis of the deposited data

How the results depend on the processing

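Over 18 alternatives, the 46 members gave 823 values, of which 776 kept their direction and their side of the threshold, 34 lost the call, 4 gained it and 9 turned in direction. The 9 were in 5 members with small changes. With GAPDH scaling SC5D was at 0.00480, SREBF1 at 0.0275, SCAP at 0.0421, ACLY at 0.0407 and ELOVL5 at 0.0833. With reference gene scaling SREBF1 was at 0.00759, SCAP at 0.0225, ACLY at 0.0206 and ELOVL5 at 0.0633. The median log2 fold change of the whole table moves up under these scalings, by 0.175 and 0.157. Genes lower over the whole table numbered 2976 with GAPDH scaling, against 4558. On the recovered reads edgeR called 5414 of 14770 genes higher and 5254 lower, and DESeq2 5001 and 5131 of 17854, with 7 members higher and 33 lower in either. MYLIP reached a log2 fold change of 1 or more with the CPM table, edgeR, DESeq2, the equal-variance test, smaller pseudocounts and either of these scalings, and without replicate 1 of either group. Each member had at least 73 reads in each library. A filter of 5 RPKM left 41 members, 6 higher and 31 lower. Leaving out 1 library gave 4233 to 4474 genes higher and 4230 to 4477 lower over the whole table, and 7 to 8 members higher and 29 to 32 lower.

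The column names number the libraries of both groups by experiment, but no source used here says that a number marks a shared culture or day, and the data did not settle whether the numbers pair the samples. Deviations from the group means of same-numbered libraries correlated at 0.274, -0.0350 and 0.136 over 12407 genes, the first being the highest of the 9 pairs, and CREM siRNA replicate 2 correlated best with control siRNA replicate 3 (0.186). With the replicate block 4853 genes were higher and 4812 lower, and 8 members were higher and 33 lower, with no member's call changed.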
